A study of Mus musculus with 8 samples.

Results

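The steroid synthesis genes of adrenal and gonad were read in mesonephric tubules of mouse embryos. They were defined as 10 named genes, and 12 of the 55681 probes on the array carry an accession of one of them. The probes matched Star, Cyp11a1, Nr5a1, Hsd3b1, Hsd3b6 and Cyp17a1, which adrenal and gonad share (6 genes, 7 probes), and Cyp11b1, Cyp21a1, Mc2r and Akr1b7, treated as adrenal-restricted (4 genes, 5 probes). Tubules were cut by microdissection from stained frozen sections, and their total RNA was hybridised in 1 colour, 1 sample per array. There were 3 arrays labelled p21 knockout (p21KO -/-) and 5 labelled wild type, all of strain C57/BL6. The design calls the wild-type tubules senescent and the p21-null ones non-senescent; the labels give no stage or sex, no account of how the allele was made, and do not say if samples are of separate embryos. The p-values thus reflect the spread among these 8 samples, part of which may be technical.

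Steroid hormones are made from cholesterol in a fixed order of steps. Star brings cholesterol into mitochondria, Cyp11a1 cuts its side chain, the Hsd3b enzymes turn pregnenolone into progesterone, and then Cyp17a1 leads towards androgens while Cyp21a1 and Cyp11b1 lead towards corticosterone. Nr5a1 (SF-1) is the nuclear receptor that switches on many of these genes, Mc2r is the receptor for ACTH, and Akr1b7 is an aldo-keto reductase that removes an aldehyde left over from side chain cutting. The adrenal cortex and the gonad arise from a common primordium beside the mesonephros, and in the fetal mouse the testis makes steroids while the ovary makes little. The division into shared and adrenal-restricted genes is not strict: Cyp21a1, Cyp11b1 and Mc2r are also known in a small population of cells of the fetal mouse testis, and Akr1b7 in the vas deferens.

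The targeted gene and the whole arrays set the frame. Cdkn1a, which encodes p21, stood at 2.11, 0.96 and 1.40 in the arrays labelled p21-null, against 2.49, 2.52, 0.44, 1.85 and 1.11 in wild type on its probe 1 (log2 signal minus the 75th percentile of the array, the scale of all levels below, replicates in order), a difference smaller than the spread (limma adjusted p = 0.953). It is not known whether either Cdkn1a probe lies in the deleted part, so this does not settle the labels, and the group is called labelled p21-null throughout. The scanner software called 82.2% to 89.2% of probes well above background per array and marked no spot as saturated. Arrays lay on 3 slides: slide 1 held labelled p21-null replicate 1 with wild-type replicates 1, 2 and 3, slide 2 labelled p21-null replicate 2 with wild-type replicate 4, and slide 3 labelled p21-null replicate 3 with wild-type replicate 5.

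Detection differed among the steroid synthesis genes. Of the 10 genes 7 had a probe above background on all 8 arrays, namely Star, Nr5a1, Hsd3b1, Hsd3b6, Cyp17a1, Cyp21a1 and Akr1b7. Cyp11a1, whose step begins every steroid pathway, was well above background on 1 of 3 labelled p21-null and 3 of 5 wild-type arrays. Cyp11b1, the last step to corticosterone, was above it on 2 of 3 labelled p21-null and 0 of 5 wild-type arrays. Mc2r was above it on 2 of 3 and 2 of 5. Of further genes known from steroid-producing cells, picked after their values were seen, Nr0b1 was above background on 0 of 3 and 1 of 5, Lhcgr, the luteinizing hormone receptor, on 1 of 3 and 0 of 5, and Hsd17b3, which makes testosterone, on 2 of 3 and 1 of 5. Of 31 regulators of steroidogenic cells 27 were above background on every array. Levels of different probes cannot be set against each other on an array, so no gene is ranked by abundance.

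**Figure D1:**
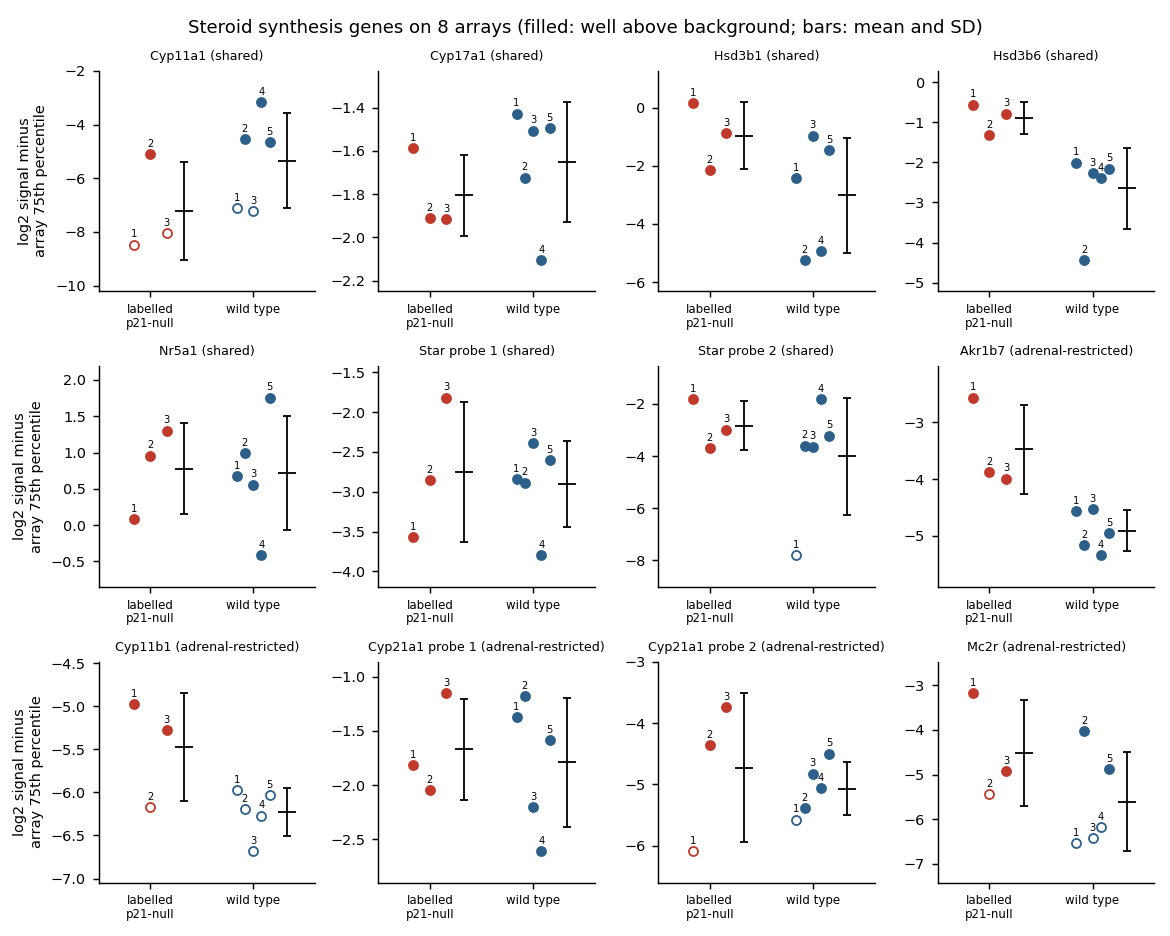
Level on each array, as log2 signal minus its 75th percentile (y axis), for 12 probes of 10 steroid synthesis genes in labelled p21-null (red, left) and wild-type arrays (blue, right). Points are arrays with their replicate number, filled where well above background, and bars give mean and SD; the groups are apart for Hsd3b6 and Akr1b7 and overlap for the other 10 probes.

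No probe of these genes differed between the groups past the adjusted threshold of 0.05. A probe was tested if it was well above background on 3 or more of the 8 arrays, counted over both groups, which 50056 probes were, 11 of the 12 among them. Cyp11b1 was left out by that filter. At that threshold limma called 0 of the 11, and of all probes tested 0%. Differences were positive for 9 of the 11 and negative for 2, where 48.2% of all probes were positive. At an unadjusted p under 0.05 there were 2 of the 11, Hsd3b6 and Akr1b7, both higher in the arrays labelled p21-null; over all probes the share was 9.77%, with 5.92% on the higher side and 3.85% on the lower. The groups did not overlap for those same 2 probes, with every labelled p21-null array above every wild-type array, which held for 4.35% of all probes; the opposite order held for 2.46% of all and for 0 of the 11. The filter can be met by the labelled p21-null arrays alone, so these counts describe the tested probes only.

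Hsd3b6 and Hsd3b1, 2 of the mouse enzymes of the progesterone step, stood higher in the arrays labelled p21-null without passing. Hsd3b6 was at −0.56, −1.32 and −0.78 in labelled p21-null replicates 1 to 3, against −2.0035, −4.43, −2.26, −2.39 and −2.16 in wild-type replicates 1 to 5. Every labelled p21-null array lay above every wild-type array, and wild-type replicate 2 lay far below the other wild-type arrays. It averaged −0.89 ± 0.39 (SD, n = 3) in the arrays labelled p21-null and −2.65 ± 1.01 (SD, n = 5) in wild type, 1.76 apart on the log2 scale (standard error 0.57) or 3.39-fold (limma unadjusted p = 0.0126, adjusted p = 0.374). The two-sided exact permutation test gave p = 0.0179, the smallest that the 56 splits of the arrays allow. On the steroid synthesis genes 12 such tests were made, 1 per probe, and the test was also run on the other listed genes. RNA of bulk tissue cannot tell more cells of a type from more RNA per cell.

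Hsd3b1, the Hsd3b enzyme best known from mouse adrenal and gonad, was at 0.14, −2.15 and −0.89 in the arrays labelled p21-null, against −2.44, −5.24, −0.96, −4.95 and −1.48 in wild type. Wild-type replicates 2 and 4 were low, and the groups overlapped, wild-type replicates 3 and 5 lying above labelled p21-null replicate 2. The difference of 2.05 had an error of 1.07 (standard error; limma adjusted p = 0.597; exact permutation p = 0.161). Within slides 1, 2 and 3 it was 3.02, 2.79 and 0.59, and for Hsd3b6 it was 2.34, 1.07 and 1.37.

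Akr1b7, the adrenal-restricted gene with the smallest p, was at −2.56, −3.88 and −3.99 in the arrays labelled p21-null, against −4.56, −5.16, −4.52, −5.34 and −4.95 in wild type. Again the groups were apart, and labelled p21-null replicate 1 stood above the other 2 arrays of its group. Its mean was −3.48 ± 0.79 (SD, n = 3) in the arrays labelled p21-null and −4.91 ± 0.36 (SD, n = 5) in wild type, 1.43 apart (standard error 0.41) or 2.70-fold (limma unadjusted p = 0.00673, adjusted p = 0.333; exact permutation p = 0.0179). The difference within slides 1, 2 and 3 was 2.18, 1.47 and 0.96. Without labelled p21-null replicate 1 it was 0.98 (limma adjusted p = 0.707).

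The start regions of these 3 genes are shown because their probes were the highest against wild type among the tested shared or adrenal-restricted probes above background on every array. Windows run from 250 bases before to 50 after the start of the gene, from RefSeq (GRCm38.p6), 5′ to 3′ on the strand of the gene; windows were found for these genes and for Cyp11a1. Capitals mark the GATA factor motif in Hsd3b6 and Hsd3b1 and the core of the NR5A motif in Akr1b7.
Hsd3b6 (chr3:98814394-98814693, minus strand): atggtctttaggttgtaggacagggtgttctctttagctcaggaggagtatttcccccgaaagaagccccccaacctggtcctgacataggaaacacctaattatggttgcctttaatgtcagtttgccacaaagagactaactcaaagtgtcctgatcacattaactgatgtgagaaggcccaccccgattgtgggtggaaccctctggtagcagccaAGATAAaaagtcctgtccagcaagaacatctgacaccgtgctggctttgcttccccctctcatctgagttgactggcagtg
Hsd3b1 (chr3:98859745-98860044, minus strand): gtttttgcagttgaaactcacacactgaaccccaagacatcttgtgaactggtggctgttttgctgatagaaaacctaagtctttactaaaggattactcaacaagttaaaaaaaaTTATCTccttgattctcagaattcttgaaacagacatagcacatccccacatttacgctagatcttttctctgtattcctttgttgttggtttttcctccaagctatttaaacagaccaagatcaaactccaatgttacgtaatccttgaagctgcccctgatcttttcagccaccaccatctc
Akr1b7 (chr6:34412112-34412411, plus strand): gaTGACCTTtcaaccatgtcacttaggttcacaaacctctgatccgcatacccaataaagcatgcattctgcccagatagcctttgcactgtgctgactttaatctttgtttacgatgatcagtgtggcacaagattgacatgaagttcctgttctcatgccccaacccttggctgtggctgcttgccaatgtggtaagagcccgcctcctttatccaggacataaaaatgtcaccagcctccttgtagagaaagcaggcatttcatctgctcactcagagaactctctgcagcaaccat

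Both strands were searched for the NR5A core AAGGTCA, which overlaps the longer NR5A form CAAGGTCA, and for the further long form CAAGGCCA. Other motifs searched were the nuclear receptor site AGGTCA, which lies inside the NR5A core, the GATA motif AGATAA, and the TATA box, spelled TATAAA here. The GATA motif began at position −31 of Hsd3b6 on the strand of the gene and at −134 of Hsd3b1 on the opposite strand, and it is in 11.2% of 32851 windows of this length. The NR5A core lay at −248 of Akr1b7 on the opposite strand, and 4.72% of windows hold it; the nuclear receptor site inside it is in 16.3%. Both long NR5A forms and the TATA box were absent from these 3 windows, against 1.56%, 2.40% and 13.6% of all windows that hold them. A match describes letters and not binding.

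Star, Nr5a1 and Cyp17a1 showed no difference beyond the spread. Cyp17a1, the enzyme that leads to androgens, varied least of all 12 probes, by 0.68 over the 8 arrays: labelled p21-null arrays stood at −1.59, −1.91 and −1.92, against −1.43, −1.72, −1.51, −2.10 and −1.50 in wild type. The difference was −0.15 (standard error 0.29; limma adjusted p = 0.922). Nr5a1 was at 0.082, 0.96 and 1.30 in the arrays labelled p21-null, against 0.68, 0.995, 0.56, −0.42 and 1.75 in wild type. Wild-type arrays were both the highest and the lowest, and the difference of 0.0665 had an error of 0.50 (standard error; limma adjusted p = 0.983).

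The 2 probes of Star disagreed on how it varied. Probe 1 was at −3.57, −2.86 and −1.82 in the arrays labelled p21-null, against −2.84, −2.89, −2.39, −3.80 and −2.60 in wild type (difference 0.15, standard error 0.47, limma adjusted p = 0.957). Probe 2 was at −1.83, −3.70 and −2.98, against −7.81, −3.60, −3.64, −1.80 and −3.22, with wild-type replicate 1 not well above background. Labelled p21-null replicate 1 and wild-type replicate 4 were the highest 2 arrays on probe 2 and the lowest 2 on probe 1. The difference on probe 2 was 1.18 (standard error 1.17; limma adjusted p = 0.819) and 0.23 without wild-type replicate 1. The place of each probe in the gene is not known here.

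Cyp11a1 was too dim for a direction to be read. It was at −8.48, −5.11 and −8.05 in the arrays labelled p21-null, against −7.12, −4.54, −7.23, −3.17 and −4.66 in wild type. The 4 arrays above background were labelled p21-null replicate 2 and wild-type replicates 2, 4 and 5, and the values of the rest are those of an undetected probe. The difference of −1.87 had an error of 1.10 (standard error; limma adjusted p = 0.649; exact permutation p = 0.161), and it rests in part on undetected values. Under other processing it ran from −2.92 without labelled p21-null replicate 2 to −0.62 with normexp background correction and −0.60 in the series table. On slide 2, where both arrays were above background, it was −1.95.

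Cyp21a1, of the corticosteroid branch, differed by less than its standard error on both probes. Probe 1, above background on all 8 arrays, was at −1.81, −2.05 and −1.15 in the arrays labelled p21-null, against −1.38, −1.18, −2.20, −2.61 and −1.58 in wild type (difference 0.12, standard error 0.41, limma adjusted p = 0.961). Probe 2, above background on 2 of 3 labelled p21-null and 4 of 5 wild-type arrays, was at −6.09, −4.36 and −3.74, against −5.57, −5.38, −4.83, −5.06 and −4.50 (difference 0.34, standard error 0.53, limma adjusted p = 0.900). On both probes labelled p21-null replicate 3 was the highest array, while the lowest was wild-type replicate 4 on probe 1 and labelled p21-null replicate 1 on probe 2.

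Mc2r, the ACTH receptor, was at −3.18, −5.44 and −4.93 in the arrays labelled p21-null, against −6.54, −4.02, −6.42, −6.18 and −4.87 in wild type. The highest 2 arrays, labelled p21-null replicate 1 and wild-type replicate 2, came from either group. The difference of 1.09 had an error of 0.72 (standard error; limma adjusted p = 0.696), and it was 0.42 without labelled p21-null replicate 1. Cyp11b1 was at −4.97, −6.17 and −5.28, against −5.98, −6.19, −6.68, −6.27 and −6.03, none of the wild-type values being well above background. For a probe undetected in 1 group only a bound can be given: the brighter group's mean is set over a floor in the dimmer group, where each array counts with its own value or, if higher, with the dimmest detected probe of that array. For Cyp11b1 every wild-type value lay above the dimmest detected probe of its array. The bound is thus the fold between the plain means, 1.69, and sets no firm lower limit. The means were −5.47 ± 0.62 (SD, n = 3) in labelled p21-null and −6.23 ± 0.28 (SD, n = 5) in wild type. The exact permutation test gave p = 0.0536, and limma adjusted p = 0.580 when no filter is set. Labelled p21-null replicate 2 was itself not above background and lay below wild-type replicates 1 and 5, so the groups overlapped.

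**Figure D2:**
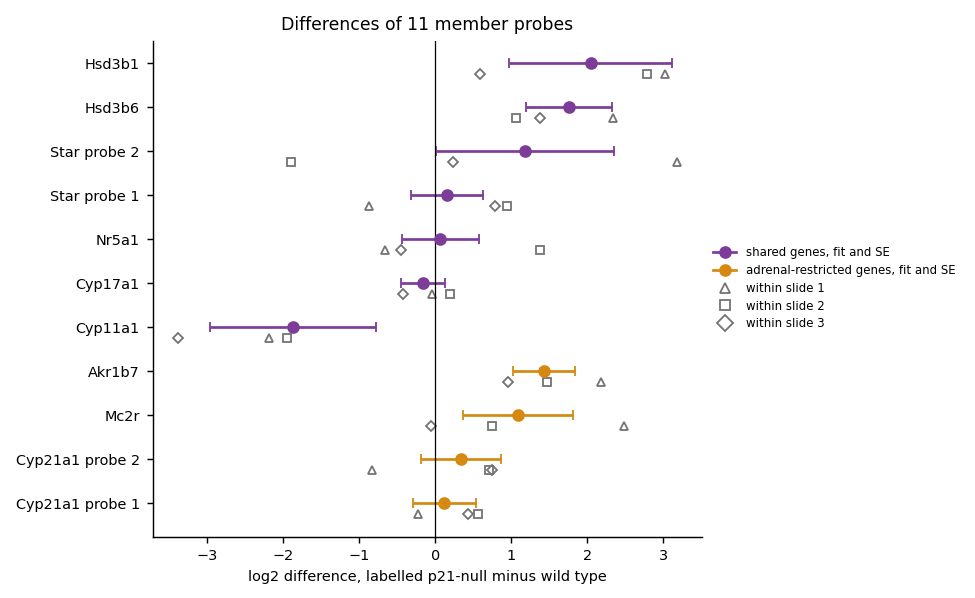
Log2 difference, labelled p21-null minus wild type (x axis), of the 11 tested probes (rows), with the limma estimate and standard error for shared (purple) and adrenal-restricted genes (orange). Grey symbols give the difference within each slide. Hsd3b1, Hsd3b6 and Akr1b7 were positive within all 3 slides, while Star, Nr5a1, Cyp17a1, Cyp21a1 and Mc2r took both signs. For Hsd3b6 and Akr1b7 the sign within slides was fixed, as every labelled p21-null array lay above every wild-type array.

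Shared and adrenal-restricted genes did not form 2 opposed sets. With the brighter probe standing for a gene, the 6 shared genes had 4 positive and 2 negative differences, from −1.87 for Cyp11a1 to 2.05 for Hsd3b1, with a median of 0.11. The 3 tested adrenal-restricted genes were positive at 0.12 for Cyp21a1, 1.09 for Mc2r and 1.43 for Akr1b7. Over 18172 genes with a symbol the median was −0.0102, and 49.4% were positive. Labelled p21-null replicate 1 was the highest of the 8 arrays on 5 of the 12 probes, those of Hsd3b1, Hsd3b6, Akr1b7, Mc2r and Cyp11b1, and the lowest on 2, Cyp11a1 and Cyp21a1 probe 2. Wild-type replicate 4 was the lowest on 5 and the highest on 2, Cyp11a1 and Star probe 2.

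Close relatives of the Hsd3b and Akr1b genes were looked up after the values above were known, since related genes can share sequence with a probe. Hsd3b3 was at −2.74, −3.66 and −4.25 in the arrays labelled p21-null, all above background, against −6.83, −8.10, −8.16, −7.53 and −4.98 in wild type, where wild-type replicate 5 alone was above it. The fitted difference of 3.57 (standard error 0.73; limma unadjusted p = 0.000897, adjusted p = 0.298) rests on background values in 4 of 5 wild-type arrays and is not a measured size. Hsd3b7, which works on bile acid precursors, differed by 1.12 and Hsd3b2 probe 1 by 0.86, while Hsd3b4 probe 1 differed by −0.70 (limma adjusted p = 0.467, 0.657 and 0.733). Hsd3b4 probe 2 went the other way at 0.35 (standard error 1.96). Hsd3b5, a gene of adult male liver, was undetected on all 8 arrays. Of the Akr1b relatives, Akr1b10 differed by 0.35 on probe 1 and 0.80 on probe 2, and Akr1b8 by 0.28. Akr1b3 differed by −0.19 on probe 1 and 0.15 on probe 2. None passed. On both Akr1b10 probes every labelled p21-null array lay above every wild-type array, as for Akr1b7, an order that held for 4.35% of all probes. Probe sequences are not part of the files used here, so cross-reading between relatives was not tested.

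**Figure D3:**
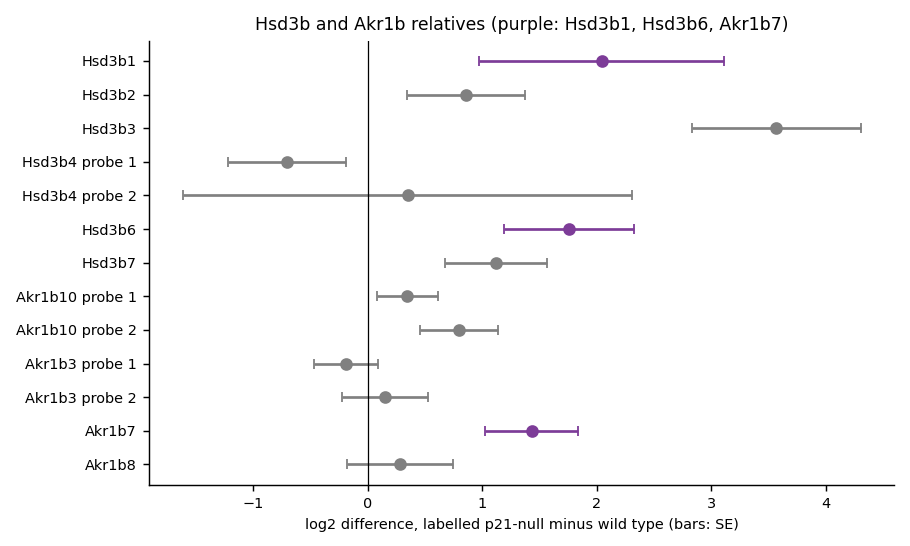
Log2 difference, labelled p21-null minus wild type (x axis, bars are limma standard errors), of every tested probe of Hsd3b and Akr1b relatives (rows). Hsd3b1 at 2.05, Hsd3b6 at 1.76 and Akr1b7 at 1.43 are in purple; the point of Hsd3b3 at 3.57 is set by undetected wild-type values and cannot be ranked with them.

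Markers of liver and blood also stood higher on average in the arrays labelled p21-null. For 12 liver markers the mean ran from 3.02 to 4.38 in the arrays labelled p21-null, against −0.52 to 3.21 in wild type, with all 12 above background on every array and wild-type replicate 2 lowest, as for Hsd3b6. The mean of 11 erythroid markers ran from 3.05 to 3.76, against 0.59 to 2.85, and all 11 were above background on every array. For 10 macrophage markers the range was 0.45 to 1.33, against −0.90 to 0.69. Wild-type replicate 5 held the highest wild-type means of all 3 lists, above labelled p21-null replicate 2 for liver and macrophage markers. Its Hsd3b1 (−1.48) also lay above that array (−2.15). Its Hsd3b6 (−2.16) and Akr1b7 (−4.95) lay below every labelled p21-null array. Those probes were singled out because their groups did not overlap, so this adds nothing further. Markers of mesonephric duct and tubule, the tissue named in the labels, ran from −1.94 to −1.24, against −1.96 to 0.37. Wild-type replicate 2 again had the lowest mean. Of the 15 markers 13 were above background on every array, and 4 differences were positive and 11 negative. The markers of smallest p were Aqp1, a water channel, which differed by 0.99 (limma adjusted p = 0.516), and Ret, a receptor of the nephric duct. Ret was above background on 0 of 3 labelled p21-null and 4 of 5 wild-type arrays. The part of these cells in the Hsd3b and Akr1b7 differences was not tested.

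**Figure D4:**
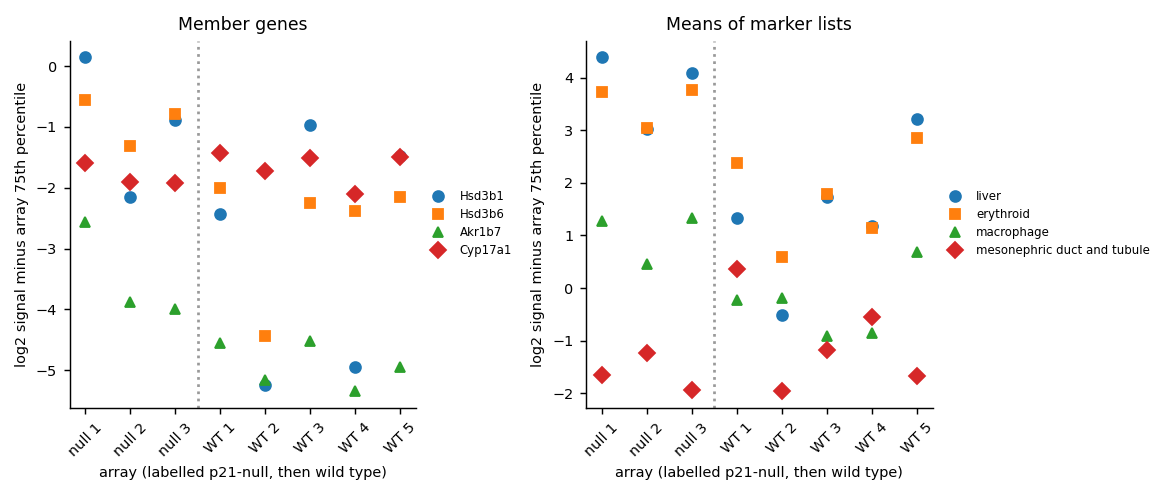
Level on each array, as log2 signal minus its 75th percentile (y axis), for 4 steroid synthesis genes (left) and for the means of 4 marker lists (right) on each array (x axis, labelled p21-null left of the dotted line, wild type right of it). Hsd3b6 and the liver, erythroid and mesonephric duct and tubule means were all lowest on wild-type replicate 2. The macrophage mean was lowest on wild-type replicate 3, and Cyp17a1 stayed between −2.10 and −1.43.

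Marker lists of adrenal and gonad cells overlapped between the groups except for Sertoli cells. Sertoli means were not alone, as the erythroid means above and the means of 28 regulators of steroidogenic cells did not overlap either. The regulators stood at −0.80 to −0.70 in the arrays labelled p21-null, against −0.68 to −0.36 in wild type. How often list means separate was not tested. The means of 7 markers of adrenal capsule and fetal cortex ran from −0.69 to −0.31 in the arrays labelled p21-null, within the wild-type range of −1.55 to 0.99. Those of 14 chromaffin and sympathetic markers ran from −2.83 to −2.66, against −2.80 to −1.35. The mean of 6 fetal Leydig cell markers ran from −3.21 to −2.28, against −3.14 to −1.21, and that of 9 Sertoli cell markers from −3.45 to −3.04, against −2.54 to −1.35. In the Sertoli list 7 of 9 markers were above background on every array, and Sox8 on 1 of 3 labelled p21-null and 4 of 5 wild-type arrays. Of the differences 3 were positive, Aard at 1.05, Dmrt1 at 0.12 and Amh at 0.05, and 6 negative. Dhh, encoding desert hedgehog, had the smallest p (difference −1.99, standard error 0.38, limma adjusted p = 0.298). Sox9, a testis determinant, differed by −2.30 and Cyp26b1, which breaks down retinoic acid, by −2.81. Means of 9 early gonad and ovary markers ran from −1.70 to −1.09, against −1.91 to −0.21. Of their differences 2 were positive and 7 negative, and those of smallest p were −1.33 for Wt1 and −1.28 for Irx3. None of these genes passed over all probes, and the means of the germ cell list, from −3.09 to −2.47 against −2.97 to −2.54, overlapped.

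Sex-linked genes split the arrays across the groups. Ddx3y, a Y-linked gene, was at −8.17, −0.21 and 0.10 in labelled p21-null replicates 1 to 3, against −1.70, −0.0044, −0.88, 0.17 and −8.29 in wild-type replicates 1 to 5. Kdm5d and Uty were likewise not above background on labelled p21-null replicate 1 and wild-type replicate 5, the 2 arrays where Xist probe 1 was highest at 3.45 and 3.30. Xist was also at 2.70 and 1.31 on wild-type replicates 1 and 3, beside detected Ddx3y. The 2 arrays without Ddx3y signal stood at −1.59 and −1.50 for Cyp17a1 and −3.57 and −2.60 for Star probe 1. These values lay within the range of the other arrays. Labelled p21-null replicate 1 was the highest of the 8 arrays for Hsd3b1, Hsd3b6, Akr1b7, Mc2r and Cyp11b1. It was the lowest for Cyp11a1 and Cyp21a1 probe 2, while wild-type replicate 5 was the highest for Nr5a1. Eif2s3y, a further Y-linked gene, stayed detected on all 8 arrays, between −0.40 and 2.19. The part of sex in the member differences was not tested.

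Genes that feed steroid synthesis with cholesterol stood mostly higher in the arrays labelled p21-null, none past the adjusted threshold. Of 22 genes of cholesterol supply 17 had a positive difference and 5 a negative one, with a median of 0.59; 5 were higher and 0 lower at an unadjusted p under 0.05, where the share of all named genes was 12.4%, with 7.74% higher and 4.63% lower. Tspo, a protein of the outer mitochondrial membrane, was at −0.34 ± 0.85 (SD, n = 3) in the arrays labelled p21-null and −2.01 ± 0.70 (SD, n = 5) in wild type, 3.19-fold higher (limma adjusted p = 0.355). Dhcr7, the last step of cholesterol synthesis, differed by 1.06, Stard4, a cholesterol carrier of the cytosol, by 1.11 and Lss, lanosterol synthase, by 1.01. The liver and blood markers given above also stood higher on average in the arrays labelled p21-null, and their part in this list was not tested.

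Among the other steroid enzymes and electron donors 14 of 21 tested genes were positive and 7 negative, with a median of 0.27. An unadjusted p under 0.05 was reached by 3 of the 21, all higher, a share near the 12.4% of all named genes. Hsd17b7, of estrogen and cholesterol synthesis, differed by 1.19 and stood higher on every labelled p21-null array than on any wild-type array. Cyb5r3 and Cyb5a, of the cytochrome b5 electron chain, differed by 0.73 and 0.71 (limma adjusted p = 0.487, 0.509 and 0.615 for the 3 genes). Among 28 regulators of steroidogenic cells 8 were positive and 20 negative, with a median of −0.38, and 2 were higher and 3 lower at an unadjusted p under 0.05. Agtr1a, an angiotensin receptor, differed by 2.38, Wt1 by −1.33, and the inhibin and activin subunit genes Inha and Inhba by −1.54 and −1.68 (limma adjusted p = 0.415, 0.355, 0.460 and 0.460).

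The genes whose pattern was most like that of the steroid synthesis genes were found by correlation over the 8 arrays with the mean of 9 tested members, each centred. Those with the highest Pearson correlation among named genes included Rfx2, Ctse, Kcnn4, Itga4, Bsg, Dld, Abcb4, Hmox1 and Selenop. Their r ran from 0.969 for Selenop to 0.983 for Rfx2 and Spearman's rho from 0.905 to 1.0, and without the 2 arrays farthest from the median (labelled p21-null replicate 1 and wild-type replicate 4) r ran from 0.936 for Hmox1 to 0.982 for Rfx2. They were picked as the highest of 18039 genes over 8 arrays that share slides and cell mixture, so the values describe likeness only. The member mean was 0.43, 0.18 and 0.35 in labelled p21-null replicates 1 to 3, against −0.25, −0.31, −0.17, −0.62 and 0.37 in wild-type replicates 1 to 5. Wild-type replicate 5 thus stood with the arrays labelled p21-null on this mean. It did so for Rfx2, a ciliary transcription factor, at −0.57 against −2.18 to −3.98 in the other wild-type arrays. The mean takes in Cyp11a1 and Mc2r, each above background on 4 of 8 arrays, so undetected values enter it. On wild-type replicate 5 Nr5a1 was the highest of the 8 arrays, while Hsd3b6 and Akr1b7 lay below every labelled p21-null array.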

How the data were processed

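Spot intensities in the deposited files are linear values from Agilent Feature Extraction 10.7.3.1, per the file headers, already corrected for background and not normalized between arrays. A series table deposited by the authors holds log2 values, for which limma is named in the submitters' processing notes. Its columns, all with a median near 9.26, correlated at 0.99996 or higher with normexp-corrected (offset 50), quantile-normalized scanner values. Gene names came from RefSeq accessions (GRCm38.p6), which named 26056 of 55681 probes; the build behind the array is not given in those sources.

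Levels are log2 processed intensity after subtraction of the array's 75th percentile. Outlier spots were dropped and repeated spots averaged. Probes well above background on at least 3 of 8 arrays were fitted without covariates (lmFit, then eBayes; limma 3.58.1, R 4.3.3), and p-values were adjusted by Benjamini-Hochberg across these probes. The fit was tested on simulated data. For single probes an exact permutation test, two-sided, went through all 56 splits. The number of arrays limits the precision.

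Members, gene lists and rules were chosen with earlier results of these data known. The genes open to naming were the members, the 4 of smallest p in each list, the sex-linked list and the 10 most alike over the arrays; Nr0b1, Lhcgr and the other Hsd3b and Akr1b relatives were added after their values were seen, and a few genes that the rule names are not reported here. Samples with the same replicate number did not deviate together (r = 0.0700, −0.0714 and −0.0755), so the numbers were not taken as pairs. The highest r were between arrays of the same slide. They were 0.22 for labelled p21-null replicate 3 with wild-type replicate 5, and 0.13 for labelled p21-null replicate 2 with wild-type replicate 4. The next highest, 0.0947, was for labelled p21-null replicate 3 with wild-type replicate 2, which lay on different slides. On slide 1 r was 0.0029 to 0.0786. Alternatives were other scalings, normexp on median intensities (the files have no mean column), filters, slide or replicate number as a block, 1 probe per gene, the series table, other moderation and leaving out each array.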

Additional observations from a re-analysis of the deposited data

Results flagged for a closer look

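Hsd3b6 on wild-type replicate 2, at −4.43, lay farther below the other wild-type arrays (−2.39 to −2.0035) than Dixon's test allows for 5 values, with a gap of 0.842 of the range against a critical value of 0.71. It was the only flag in 12 probes tested in the wild-type group, and chance flags about 1 in 20 such groups. The liver, erythroid and mesonephric duct and tubule marker means of that array, −0.52, 0.59 and −1.96, were also the lowest of the 8. Without that array the Hsd3b6 difference was 1.31 (limma adjusted p = 0.468).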

How the results depend on the processing

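In the alternatives run, 0 member probes passed the adjusted threshold, and 2 or 3 had an unadjusted p under 0.05. In every alternative fitted with limma the differences of Hsd3b1 (1.49 to 2.64), Hsd3b6 (1.31 to 2.01) and Akr1b7 (0.88 to 1.69) stayed positive. Those of Mc2r and Star probe 2 did too, and those of Cyp11a1 (−2.92 to −0.60) and Cyp17a1 stayed negative. Leaving out arrays could not turn Hsd3b6 or Akr1b7, whose groups did not overlap. Within single slides Mc2r, Star probe 2 and Cyp17a1 turned once each (−0.0585, −1.89 and 0.19). Normexp correction put 3 of all probes past the threshold and the adrenal-restricted median at 0.45, the series table put that median at 0.46, and within slides 1 and 3 it was 2.18 and 0.43; the shared median was 1.01 within slide 2. Without single arrays, probes past the threshold numbered 0 to 1 (1 without wild-type replicate 4), those at an unadjusted p under 0.05 2599 (without labelled p21-null replicate 3) to 5473, and the adrenal-restricted median was 0.42 (without labelled p21-null replicate 1) to 1.55. Signs of near-zero differences turned: Nr5a1 with slide as a block (−0.0204), and Star probe 1 (−0.0438) and Cyp21a1 probe 1 (−0.0852) with the replicate block. Leaving out arrays, Star probe 1 ran from −0.31 to 0.57, Nr5a1 from −0.22 to 0.42, Cyp21a1 probe 1 from −0.14 to 0.31 and Cyp21a1 probe 2 from −0.15 to 1.02. The cause was not tested. With the replicate block 5438 probes had an unadjusted p under 0.05, against 4890 without it, and no member was called; not every sample correlated best with its own number. Cyp11b1 was tested only without a filter, and Cyp11a1 and Mc2r could not be fitted under the filter at 6 of 8 arrays. Dim probes limit the precision for Cyp11a1, Cyp11b1 and Mc2r.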
